A study of Mus musculus with 4 samples.

Results

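Complexes II, III and IV of the mitochondrial respiratory chain and cytochrome c are described here in ventricles of mice with and without the nuclear receptor ERRα (gene Esrra). The group holds 36 nuclear genes and was chosen by gene name, from the Sdh, Uqcr and Cox families, cytochrome c and the factors that assemble complex IV. Of the 36 genes, 28 had at least 1 probe set annotated to a single gene. These gave 34 of the 12422 probe sets on the array, and 29 of them, for 26 genes, were bright enough to be tested among 7453. The data were 4 one-colour Affymetrix arrays of total RNA from mouse ventricle at baseline, that is without pressure overload, 2 from ERRa ko and 2 from ERRa wt hearts. The comparison asked how expression differs between the genotypes before stress. The labels give only the genotype, tissue and baseline state of each group. They name no allele, strain, sex or age, and do not say whether a sample was 1 animal, so the spread behind the p-values may be technical rather than between animals.

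Complex II, succinate dehydrogenase, passes electrons from the citric acid cycle to ubiquinone. Complex III passes them from ubiquinol to cytochrome c, a small soluble haem protein, and complex IV, cytochrome c oxidase, passes them on to oxygen. Complexes III and IV pump protons, whereas complex II does not. Complex IV needs chaperones that deliver copper and build haem a, and in heart and skeletal muscle some of its subunits are replaced by muscle isoforms. ERRα acts with the coactivator PGC-1α on many nuclear genes of oxidative metabolism, and cytochrome c is among the genes known to respond to this pair.

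No member passed the test. Adjusted p-values from limma with Benjamini-Hochberg adjustment over all probe sets ran from 0.791 to 0.993 over the 29 member probe sets. None had an unadjusted p under 0.05, the lowest being 0.115, and none differed by as much as 1.5-fold. Over all probe sets 0.0134% passed, which was 1 probe set of Esrra, and 6.79% had an unadjusted p under 0.05. The 95% intervals of the members reached 0.51 to 0.95 to either side of the log2 difference and all 29 included 0, so differences of the size seen here could not be told from none with 2 arrays a group. Exact permutation of 4 arrays can reach no two-sided p below 0.333, and none is given for single genes.

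On the deposited scale, signal values of the members separated the genotypes more often downwards than upwards. For 10 of 29 probe sets (34.5%) both knockout arrays lay below both wild-type arrays, and for 4 of 29 (13.8%) both lay above. Over all 7453 probe sets these shares were 16.7% lower and 20.7% higher. After quantile normalization 5 members lay lower (17.2%) and 5 higher (17.2%), against 18.1% and 18.7% of all probe sets, so no excess of lower members was left. After median scaling 11 lay lower and 2 higher, against 19.98% and 17.8% of all. Without knockout replicate 1, 11 lay lower and 12 higher, against 32.4% and 37.0% of all. Most members are bright, with 26 of the 29 among the strongest 20% of tested probe sets. Within that strongest 20%, which held 1490 probe sets, 24.2% lay lower and 16.7% higher without overlap, against 10 and 3 of the 26 members. The 10 probe sets belonged to 9 genes, Uqcrb, Uqcrc1, Cycs, Cox5b, Cox7a1, Cox7a2, Cox7a2l, Cox8b and Cox17. The 4 in the other direction were Sdhc, Sdhd, Uqcr10 and Surf1.

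The median log2 difference, knockout minus wild type, was -0.09 over the 26 tested genes, 0.01 over all genes tested and -0.05 over the strongest 20% of probe sets. The member median shrank, turned or grew with the array left out or the processing. It was 0.01 when knockout replicate 1 was left out and -0.02 when wild-type replicate 1 was. It was 0.0035 after quantile normalization and -0.05 without the filter on dim probe sets. After median scaling it was -0.14, against -0.03 over all genes. Without probe sets whose suffix marks possible cross-hybridization it was -0.13, against 0.0065 over all genes. Knockout replicate 1 held the lowest signal of the 4 arrays for 11 of the 26 genes, knockout replicate 2 for 5, wild-type replicate 2 for 7 and wild-type replicate 1 for 3. The median deviation of the member genes from their 4-array mean was -0.07 on knockout replicate 1, 0.05 on knockout replicate 2, 0.04 on wild-type replicate 1 and -0.0048 on wild-type replicate 2. Under quantile normalization 5 of the 9 genes remained lower without overlap, namely Cycs, Uqcrb, Cox7a2l, Cox8b and Cox17, and no other member joined them. Of the 4 genes that lay higher, Sdhc, Sdhd and Uqcr10 remained so there, and Sdhb and Uqcr11 joined them. After median scaling only Sdhc and Uqcr10 lay higher.

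**Figure D1:**
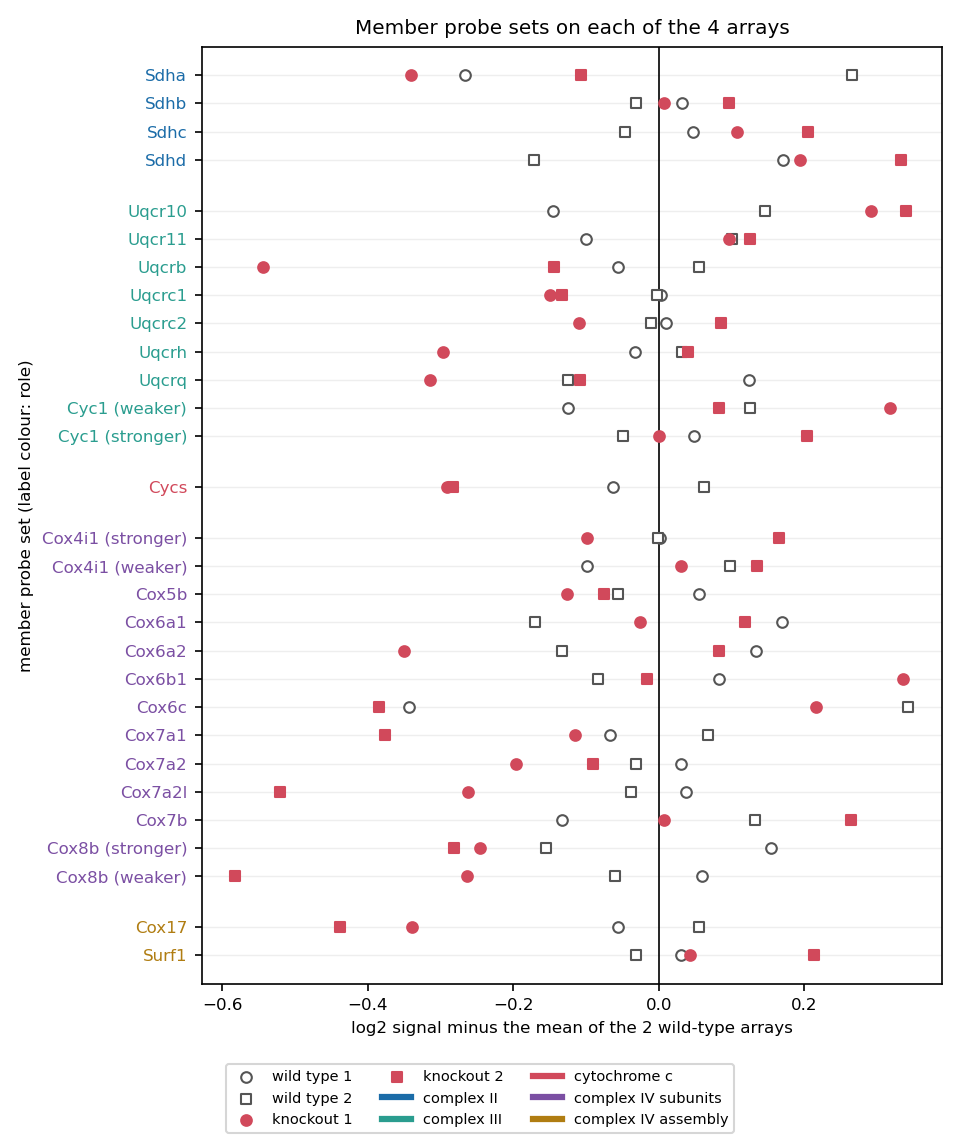
Each row is 1 member probe set and each point 1 array, plotted as log2 signal minus the mean of the 2 wild-type arrays, with label colours for the 5 roles. Both filled knockout points lie left of both open wild-type points for 10 of 29 rows, among them Cycs, Cox7a2l, both Cox8b rows and Cox17, and right of them for 4 rows.

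The genotype and the tissue were checked first. The weaker Esrra probe set gave 2688 and 2828 in wild type against 83.6 and 55.2 in knockout, both under the floor of 110, a signal at least 25.1-fold lower (limma adjusted p = 0.0441), and the stronger gave 8598 and 8039 against 922 and 1050, which did not pass (limma adjusted p = 0.179). The weaker is of a kind marked as shared by similar sequences, and the stronger is not. The ventricular cardiomyocyte markers, 9 of 10 on the array, summed to 1029400 and 1014700 in wild type and to 848590 and 1012900 in knockout. Both knockout sums were thus lower, that of replicate 2 only just. Of the 11 probe sets of these markers 36.4% lay lower and 0% higher without overlap, and their median log2 difference over genes was -0.13. The members had 34.5% lower and 13.8% higher, with a median of -0.09. Of the other marker sums, the endothelial, immune and erythroid ones overlapped between the genotypes and the rest lay apart. The atrial sum (5 of 5 markers) was 8957 to 10736 in wild type and 17325 to 17439 in knockout. The fibroblast sum (7 of 7) was 62109 to 73170 and 84949 to 89270, and the adipocyte sum (4 of 6) 1836 to 1934 and 2250 to 2490. Fabp4, the brightest adipocyte marker, overlapped, and without it the adipocyte sum was 318 to 389 and 817 to 902. The smooth muscle sum (4 of 4) was 6474 to 8035 and 14298 to 22412, and without Acta2 it was 3565 to 3900 and 3382 to 3659, which overlapped. The skeletal muscle sum (8 of 8, with Myh2 under the floor on every array) was 37016 to 54292 in wild type and 25048 to 29093 in knockout. Without Acta1 it was 5920 to 5983 and 6676 to 9676, higher in knockout, where Pvalb and Myh4 lay higher and Atp2a1 lower without overlap. The brown adipocyte sum (3 of 3, with Elovl3 under the floor on every array) was 2422 to 2424 and 1532 to 1719. Without Cidea, its 1 marker bright enough to test, it was 202 to 346 and 308 to 405 with overlap. The ratio of 5′ to 3′ β-actin signal was 0.909 to 0.966 on the wild-type arrays and 0.694 to 0.813 on the knockout arrays. For Gapdh it was 1.01 to 1.04 on the wild-type arrays and 0.968 to 0.994 on the knockout arrays. The part of these in the member values was not tested. In such bulk tissue fewer cells of a type and less RNA per cell cannot be told apart.

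Promoters were read for the members because ERRα, NRF1 and GABP are well known to act on respiratory chain genes. RefSeq promoter windows, from 250 bases before to 50 bases after the start on build GRCm38.p6, were held for 26 of the 36 genes. The searched cores were AAGGTCA for ERR, CATGCGC for NRF1 and CCGGAAG for GABP, on both strands, and the NRF1 core can overlap its own reverse complement. The ERR core was in 1 of 26 member windows, that of Sdhd, and in 4.72% of all 32851 windows. The NRF1 core was in 6 of 26 (Sdhb, Uqcr11, Uqcrc1, Cycs, Cox5b and Cox6a1) against 3.91% of all windows, and the GABP core in 11 of 26 against 8.86%. Of the 9 genes that lay lower without overlap, 7 had a window. Of these, 3 held the NRF1 core (Uqcrc1, Cycs and Cox5b) and 0 held either of the others. Of the 4 genes that lay higher without overlap, 3 had a window. Among those, 2 held the GABP core (Sdhd and Surf1), 1 the ERR core (Sdhd) and 0 the NRF1 core. A match is a run of letters only, and the directions named here are those on the deposited scale. Shown are the promoters of Cycs (chr6:50566520-50566819, minus strand) and Uqcrc1 (chr9:108936398-108936697, plus strand), lower in knockout without overlap and holding the NRF1 core, and of Sdhd (chr9:50603800-50604099, minus strand), higher without overlap and holding the ERR core. They run 5′ to 3′, and capitals mark the matched cores.
Cycs: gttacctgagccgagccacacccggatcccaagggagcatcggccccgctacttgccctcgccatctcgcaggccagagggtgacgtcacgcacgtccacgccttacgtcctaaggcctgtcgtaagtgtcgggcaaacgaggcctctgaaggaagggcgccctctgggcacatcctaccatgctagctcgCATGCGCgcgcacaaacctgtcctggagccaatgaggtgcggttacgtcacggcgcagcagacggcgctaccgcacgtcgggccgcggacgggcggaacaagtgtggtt
Uqcrc1: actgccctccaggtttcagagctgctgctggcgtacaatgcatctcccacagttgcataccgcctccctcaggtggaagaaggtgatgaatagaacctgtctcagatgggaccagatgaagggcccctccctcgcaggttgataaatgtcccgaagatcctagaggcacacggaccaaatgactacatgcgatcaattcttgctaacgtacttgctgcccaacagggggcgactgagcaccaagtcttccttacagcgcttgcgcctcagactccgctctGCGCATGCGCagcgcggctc
Sdhd: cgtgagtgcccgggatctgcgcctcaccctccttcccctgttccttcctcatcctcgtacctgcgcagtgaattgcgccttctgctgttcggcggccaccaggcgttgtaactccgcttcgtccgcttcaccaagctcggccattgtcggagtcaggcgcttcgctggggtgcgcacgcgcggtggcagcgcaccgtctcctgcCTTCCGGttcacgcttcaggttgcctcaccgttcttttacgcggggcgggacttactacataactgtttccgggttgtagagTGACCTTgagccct
In Cycs the core starts 59 bases before the start. In Uqcrc1 the core and its reverse complement overlap from base 31 after the start. In Sdhd the capitals nearer the 5′ end are the GABP core, 46 bases before the start, and the others the ERR core from base 37 after it, both on the opposite strand.

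Succinate dehydrogenase genes were not lower as a group. All 4 were tested, 2 lay higher in knockout without overlap and 2 overlapped, and their median log2 difference was 0.10. Over all probe sets 20.7% lay higher and 16.7% lower, so a count from 4 probe sets says little. Sdhd, a membrane anchor, gave 56281 and 44372 in wild type and 57193 and 62917 in knockout. Knockout replicate 1 stood only just above wild-type replicate 1, and wild-type replicate 2 was the low array. The log2 difference was 0.26 (SE 0.23, limma adjusted p = 0.839) and 0.09 without wild-type replicate 2. Sdhc, the other anchor, gave 37768 and 35390 in wild type and 39409 and 42165 in knockout. All 4 arrays were close, and the difference was 0.16 (SE 0.20, limma adjusted p = 0.898). Sdhb, the iron-sulphur subunit, gave 56641 and 54213 against 55705 and 59226, which overlapped, with a difference of 0.05. Sdha, the flavoprotein that oxidises succinate, gave 6521 and 9431 in wild type and 6193 and 7286 in knockout. Its groups overlapped and its wild-type arrays differed more than the genotypes did. The log2 difference was -0.22 (SE 0.27, limma adjusted p = 0.893), and 0.04 without wild-type replicate 2.

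Complex III was mixed. Of its 9 genes, 8 were tested on 9 probe sets, of which 2 lay lower in knockout without overlap, 1 higher and 6 overlapped. These shares, 22.2% lower and 11.1% higher, compare with 16.7% and 20.7% over all probe sets. Among the strongest tested probe sets, as defined above, they were 24.2% and 16.7%, so complex III showed no excess of lower probe sets over equally bright ones. The median over the 8 genes was -0.07. Uqcrfs1, the Rieske iron-sulphur protein, had no probe set of its own. Uqcrb, a small subunit near the ubiquinone site, gave 48014 and 51864 in wild type and 34241 and 45164 in knockout. Knockout replicate 1 was far below the other arrays. The log2 difference was -0.34 (SE 0.24, limma adjusted p = 0.829) and ran from -0.54 to -0.14 with 1 array left out, -0.14 being the value without knockout replicate 1. Its probe set is of a kind marked as shared by similar sequences. Uqcrc1, a core protein, gave 71840 and 71566 against 64675 and 65417. These were among the tightest replicates of the group, 71703 ± 193 in wild type and 65046 ± 524 in knockout (SD, n = 2 each). The difference was -0.14 (SE 0.19, limma adjusted p = 0.911), with an SE that limma drew towards that of all probe sets, and -0.01 after quantile normalization.

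Uqcr10, a small subunit, lay the other way, at 32039 and 39216 in wild type and 43371 and 44841 in knockout. Both knockout arrays were high and wild-type replicate 1 was low. Its log2 difference of 0.32 was the highest of the group (SE 0.22, limma adjusted p = 0.828) and was 0.17 without wild-type replicate 1. The remaining complex III genes overlapped between genotypes, with log2 differences from -0.21 for Uqcrq and -0.13 for Uqcrh through -0.01 for Uqcrc2 to 0.11 for Uqcr11. Cyc1, cytochrome c1, which hands electrons to cytochrome c, gave 100738 and 94135 in wild type and 97395 and 112119 in knockout on its stronger probe set. The difference was 0.10 on that probe set and 0.20 on the weaker.

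Cytochrome c itself, Cycs, was lower in both knockout samples. It carries electrons from complex III to complex IV, and outside the mitochondrion takes part in the apoptosome. Its signals were 6332 and 6905 in wild type and 5404 and 5437 in knockout, 6618 ± 405 against 5420 ± 23.5 (SD, n = 2 each). The knockout arrays nearly coincided and lay below both wild-type arrays. The ratio of knockout to wild type was 0.820, a log2 difference of -0.29 with a 95% interval from -0.81 to 0.24 (SE 0.20, limma adjusted p = 0.829). It ran from -0.35 to -0.22 with each array left out in turn.

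**Figure D2:**
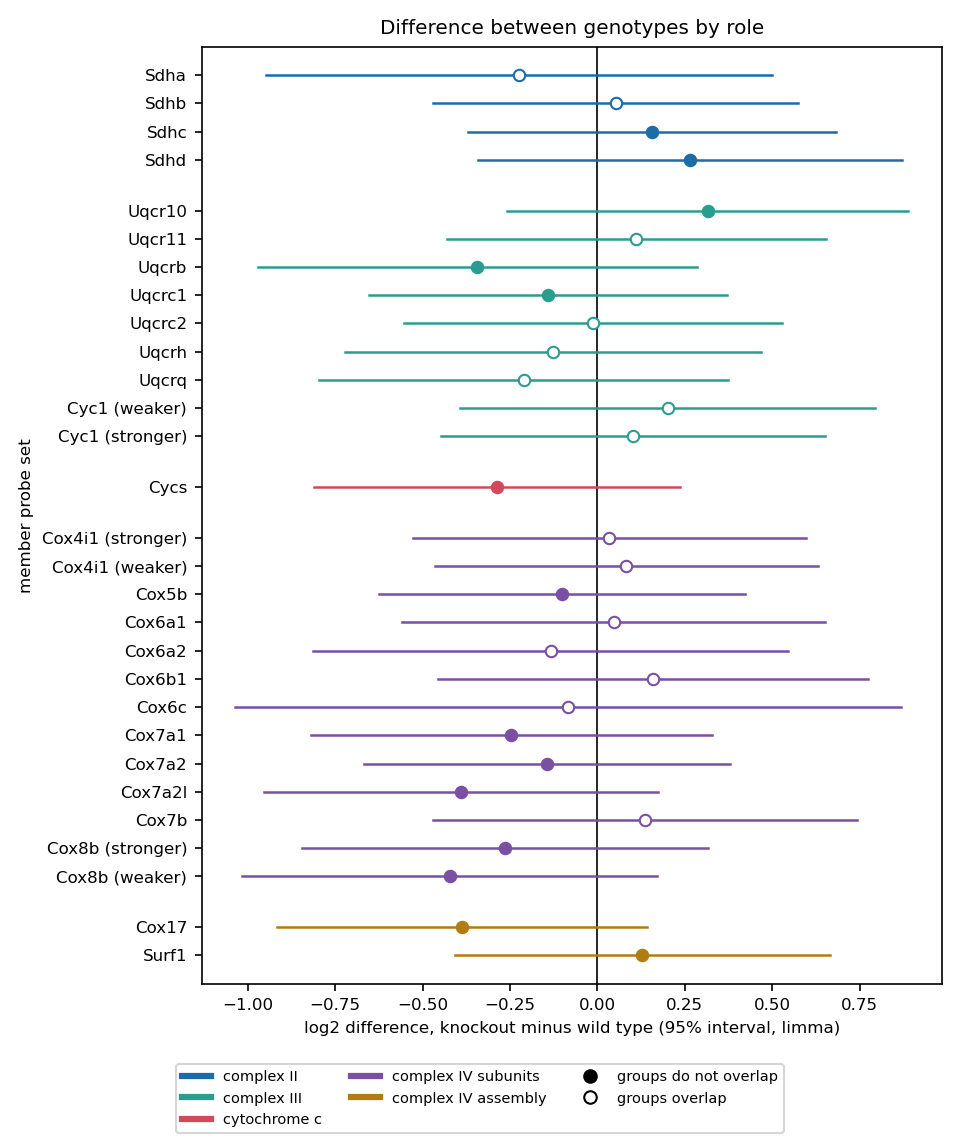
Points are log2 differences, knockout minus wild type, of the 29 tested member probe sets with 95% intervals from limma, coloured by role, and filled where the groups did not overlap. Every interval includes 0. Filled points to the left are those of Uqcrb, Uqcrc1, Cycs, 6 complex IV probe sets and Cox17.

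Complex IV subunits made up 6 of the 10 probe sets that lay lower without overlap on the deposited scale. Of its 15 subunit genes, 11 were tested on 13 probe sets, 6 of which lay lower in knockout without overlap, 0 higher and 7 overlapped, with a median over genes of -0.10. The shares over all probe sets were 16.7% lower and 20.7% higher, and 24.2% and 16.7% in the strongest 20%. After quantile normalization Cox7a2l and Cox8b were the only complex IV subunits left apart downwards. Cox4i2 had no probe set of its own, and the 2 probe sets for Cox7c were shared with another gene. Cox5a, on 2 probe sets, and Cox8a were too dim to test. Their signals ran from 48.3 to 353 for Cox5a and from 57.5 to 176 for Cox8a.

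Cox8b, the muscle form of subunit VIII, had the lowest log2 difference of the group. Its weaker probe set gave 11695 and 10764 in wild type and 9346 and 7497 in knockout, and its stronger one 72337 and 58371 against 54831 and 53473. Both probe sets separated the genotypes on the deposited scale, with knockout replicate 2 lowest on each. After quantile normalization the 5 member probe sets that lay lower were of 5 genes, so the Cox8b probe sets did not both stay apart. The log2 differences were -0.42 (SE 0.22, limma adjusted p = 0.795) and -0.26 (SE 0.22, limma adjusted p = 0.837). The weaker one was -0.26 without knockout replicate 2, and the stronger -0.11 without wild-type replicate 1. The stronger probe set carries a suffix that marks possible cross-hybridization. Cox8a, the form of most other tissues, stayed near the floor, so the 2 forms could not be compared.

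The COX7A family has a muscle form, a widely expressed form and a relative, COX7A2L, that joins complexes III and IV into supercomplexes. Cox7a2l gave 11818 and 11209 in wild type and 9601 and 8026 in knockout. Both knockout arrays were lower, and knockout replicate 2 the most. The ratio was 0.763, a log2 difference of -0.39 (SE 0.21, 95% interval from -0.95 to 0.17, limma adjusted p = 0.799). Cox7a1, the muscle form, gave 31552 and 34633 in wild type and 30518 and 25463 in knockout. The groups were apart by a narrow margin, since knockout replicate 1 lay just under wild-type replicate 1. The difference was -0.25 (SE 0.22, limma adjusted p = 0.842), and -0.12 without knockout replicate 2. Cox7a2, the widely expressed form, gave 61575 and 58970 against 52580 and 56619, a difference of -0.14 (SE 0.20, limma adjusted p = 0.911) that was -0.06 after quantile normalization. Of the COX7A family all 3, the muscle form and the others, had lower signals in knockout without overlap on the deposited scale, and only Cox7a2l did so after quantile normalization, while none passed. The skeletal muscle and brown adipocyte marker sums were also lower in knockout, though not without Acta1 and Cidea respectively, and their part in the values of Cox7a1 and Cox8b was not tested.

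The COX6A forms did not separate. Cox6a2, the muscle form, gave 228142 and 189703 in wild type and 163300 and 220364 in knockout. Knockout replicate 1 was the lowest and knockout replicate 2 lay within the wild-type range. The log2 difference was -0.13 (SE 0.26, limma adjusted p = 0.933) and 0.08 without knockout replicate 1. Cox6a1, the form of most other tissues, gave 25154 and 19879 against 21961 and 24271, a difference of 0.05 with a 95% interval from -0.56 to 0.65. Neither interval excludes a moderate change in either direction. The Cox6a1 probe set is of a kind marked as shared by similar sequences, so it may not read Cox6a1 alone. Cox4i1, the largest subunit of the complex encoded in the nucleus, gave 4147 and 4140 in wild type and 3871 and 4649 in knockout on its stronger probe set and 625 and 717 against 684 and 736 on its weaker. Both overlapped, at 0.03 and 0.08. These 2 values turned to -0.0093 after median scaling and -0.01 after quantile normalization respectively. The stronger Cox4i1 probe set is also of the kind marked as shared by similar sequences.

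**Figure D3:**
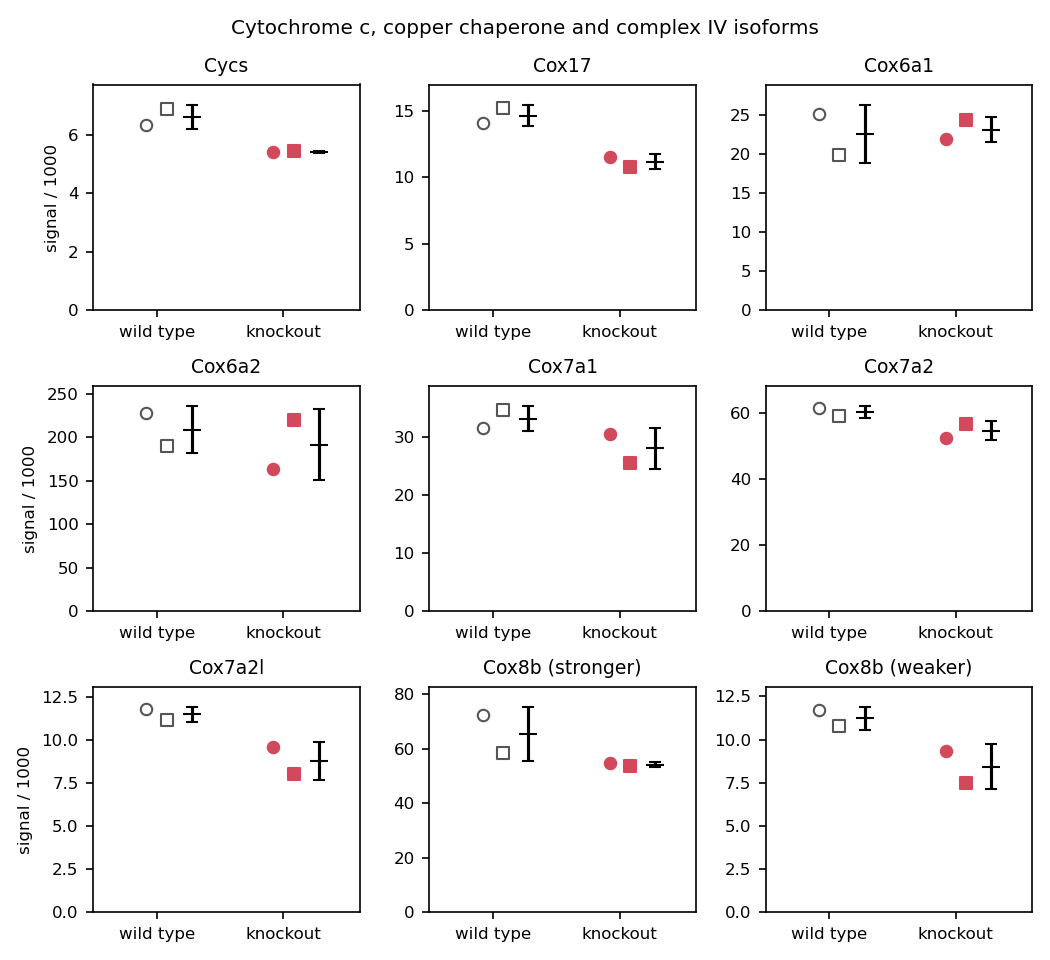
Signal divided by 1000 on a linear axis from 0 for Cycs, Cox17 and complex IV isoforms. Open symbols are wild type, filled symbols knockout, circles replicate 1 and squares replicate 2, and bars give the mean and SD of 2 arrays. Cycs, Cox17, Cox7a2l and both Cox8b panels have both knockout points under both wild-type points, whereas those of Cox6a1 and Cox6a2 overlap.

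The other subunits differed little. Cox5b, which binds zinc, gave 72264 and 66912 in wild type and 63711 and 65980 in knockout, lower without overlap, with a log2 difference of -0.10. Cox7b lay at 0.14 and Cox6b1 at 0.16, both with overlap. Cox6c varied between replicates more than any other tested member. Its bright probe set gave 28530 and 45902 in wild type and 42052 and 27714 in knockout, so each genotype had a high and a low array. Its interval, from -1.04 to 0.87 around -0.08, was the widest of the group.

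Assembly of complex IV was covered by 2 of 7 genes. Cox10, Cox11, Cox15 and Sco1 had no probe set annotated to them alone, and the probe set for Sco2 was shared with Tymp. Cox17, which hands copper to the chaperones that load complex IV, gave 14046 and 15178 in wild type and 11547 and 10780 in knockout. The gap between genotypes was wider than the spread within either, 14612 ± 801 against 11164 ± 542 (SD, n = 2 each). The ratio was 0.764 and the log2 difference -0.39, with a 95% interval from -0.92 to 0.14. Its p was the lowest of the members (SE 0.20, unadjusted p = 0.115, limma adjusted p = 0.791), and the difference ran from -0.44 to -0.33 without each array in turn. Surf1, an assembly factor whose loss in humans causes Leigh syndrome, gave 2468 and 2365 against 2488 and 2800. Knockout replicate 1 barely cleared wild type, and the difference was 0.13 (SE 0.20, limma adjusted p = 0.919), or 0.04 without knockout replicate 2.

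**Figure D4:**
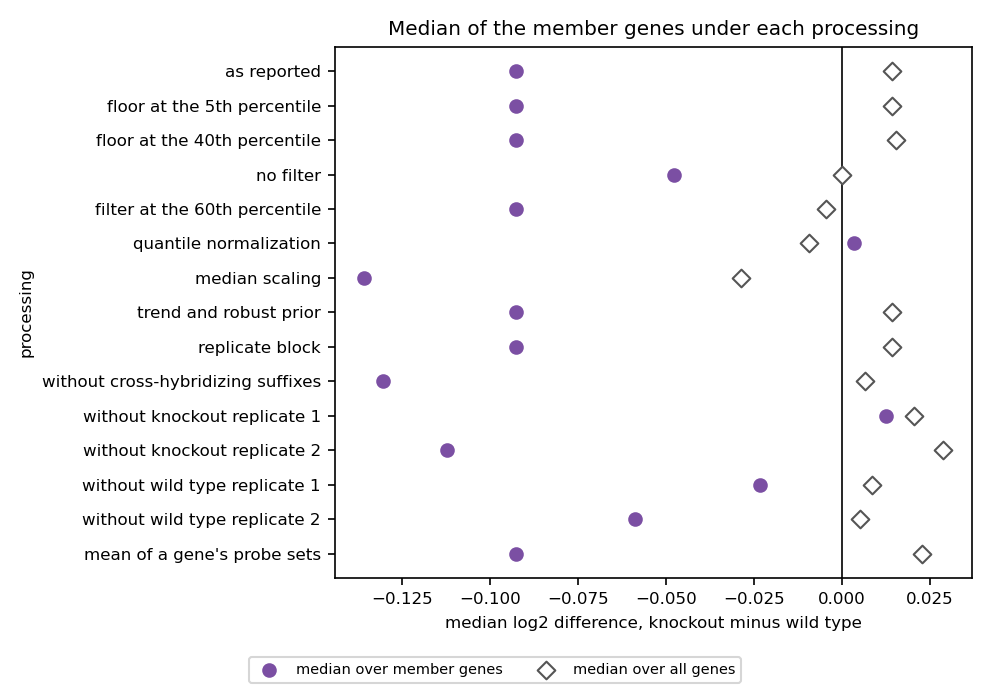
Medians of log2 differences, knockout minus wild type, over the member genes (filled) and over all genes tested (open) under each processing. The member median lies at -0.09 as reported, at 0.0035 after quantile normalization and at 0.01 without knockout replicate 1. After median scaling it lies at -0.14.

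Genes around these complexes were read from 4 further lists. Of 36 further assembly and maturation factors and minor isoforms, 16 were tested on 18 probe sets. None passed, 5 lay lower (27.8%) and 4 higher (22.2%) without overlap, against 16.7% and 20.7% of all probe sets, and the median was -0.08. The lowest p was that of Cox6b2, the testis form of subunit VIb, at 251 and 45.8 in wild type and 836 and 675 in knockout, with 1 wild-type array under the floor (limma adjusted p = 0.694). Next was Cmc2, a factor of complex IV biogenesis, at 1729 and 1279 against 2461 and 2396 (log2 0.71, limma adjusted p = 0.694), and its second probe set also lay higher without overlap. Of 20 genes that feed electrons to ubiquinone or make it, 12 were tested on 15 probe sets. None passed, 6 lay lower (40.0%) and 4 higher (26.7%), against the same 16.7% and 20.7%, and the median was -0.15. Coq4, a factor of ubiquinone synthesis, gave 719 and 1339 in wild type and 246 and 424 in knockout on a probe set of a kind marked as shared by similar sequences (log2 -1.60, limma adjusted p = 0.694). Its other, brighter probe set gave 1385 and 1770 against 1547 and 1354, which overlapped, at -0.11 (limma adjusted p = 0.942). Etfdh, which passes electrons from fat oxidation to ubiquinone, gave 12179 and 12246 against 5488 and 7793 (log2 -0.90, limma adjusted p = 0.694).

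Of 16 nuclear regulators of mitochondrial genes, 8 were tested on 10 probe sets, and the 1 that passed was of Esrra. Of these probe sets 2 lay lower without overlap, both of Esrra itself. The 4 that lay higher (40.0%, against 20.7% of all) were of Polrmt, Ppargc1a, Sp1 and Gabpb1, and a second, brighter probe set of Polrmt overlapped. Of 11 genes of the apoptosome and its control, 7 were tested on 10 probe sets. None passed, 0 lay lower and 1 higher (10.0%) without overlap, against 16.7% and 20.7% of all, and the median was 0.07. The lowest p-values there were those of Htra2 and Bcl2, both at a log2 difference of 0.30 and with overlapping groups.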

How the data were processed

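Total RNA of mouse ventricle was measured on 4 one-colour arrays, 2 per genotype. The authors deposited 1 linear intensity for each probe set, scaled so that the mean after trimming 2% at each end was 1501 on every array. Software, summary method and build are not given in the sources used here. The number of arrays limits the precision.

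Probe sets were named from the platform annotation, and 10839 of the 10855 with 1 symbol matched RefSeq genes of GRCm38.p6. The 66 control probe sets and those with a mean under 350.6 (the 40th percentile) were left out. Signals under 110 (the 20th percentile of all values) were raised to it before log2. The genotype effect was fitted without pairing in limma 3.58.1 under R 4.3.3 (lmFit, eBayes), with Benjamini-Hochberg adjustment over 7453 probe sets and a threshold of 0.05. Medians over genes used the probe set of highest mean. Only the limma fit was tested on simulated data, with planted changes larger than any member difference.

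Full values are given for up to 12 members of lowest p without overlap, isoform families, Cycs and Sdh genes, and for the 2 lowest p-values of each further list without a member past the threshold. The members and lists were chosen with earlier results of these data known. Alternatives varied the floor, filter, scaling, prior, pairing, probe sets and arrays.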

Additional observations from a re-analysis of the deposited data

How the results depend on the processing

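No member probe set passed the threshold under any of the 14 alternatives, and the adjusted p-values of the members described in full ran from 0.466, with no filter, to 1.0. After quantile normalization 5 member probe sets lay lower in knockout without overlap in place of 10, against 18.1% of all probe sets, and the median over genes was 0.0035 in place of -0.09. With 1 array left out, 11 to 16 lay lower (16 without knockout replicate 2), where 31.5% to 32.4% of all probe sets did, and 6 to 12 higher, where 36.6% to 37.3% did. Without knockout replicate 1 more lay higher (12) than lower (11). The median ran from -0.11 to 0.0126. Of the members described in full, 14 of 19 probe sets kept their direction throughout. Cox4i1 turned to -0.0093 after median scaling on its stronger probe set and to -0.0117 after quantile normalization on its weaker, and ran from -0.0981 to 0.17 and from -0.0156 to 0.18 with 1 array left out. Likewise Sdha ran from -0.49 to 0.0427, Cox6a1 from -0.12 to 0.22 and Cox6a2 from -0.35 to 0.0831. The cause was not tested, beyond the samples or scaling each alternative changes.

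The labels do not say whether the sample numbers pair the samples. Deviations of same-numbered arrays correlated at 0.0113 across probe sets, which shows no large shared effect but cannot decide how samples were handled. With the replicate block 0 members passed, 10 lay lower and the median was -0.09. Over all probe sets 0 passed with the block against 1 without it, 0 with either other floor or no filter, and 2 with the trend and robust prior or the stricter filter. An unadjusted p under 0.05 was reached by 3 member probe sets with no filter (Cox17, Cycs and Uqcrc1), 8.82% of them against 8.85% of all, and by 3 with the trend and robust prior (Cox17, Cox7a2l and Cox8b), 10.3% against 7.25%.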

Other observations

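On each of the 3 probe sets of Cox6c, singled out after their values were seen, wild-type replicate 2 and knockout replicate 1 gave the higher signals and the other two arrays the lower. The bright one gave 45902 and 42052 against 28530 on wild-type replicate 1 and 27714 on knockout replicate 2. The dim ones, both outside the test, gave 252 and 268 against 140 and 126, and 409 and 153 against 70.9 and 74.0, the last pair under the floor of 110. The order within the high and the low pair was not the same on the 3 probe sets.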
